A study of Homo sapiens with 6 samples.

Results

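The genes described here are the non-catalytic subunits of the proteasome, the factors that assemble, activate or inhibit it, and NFE2L1 with the 2 enzymes that activate it. They were chosen by name, as 44 gene symbols taken from the known composition of the complex, and all 44 were found among the 61498 genes of the deposited tables. By role they are 7 subunits of the 20S alpha ring, 4 non-catalytic subunits of the 20S beta rings, 10 subunits of the 19S base, 9 of the 19S lid, 3 assembly chaperones of the 19S base, 3 activators and inhibitors, 5 chaperones of 20S assembly and 3 genes of the NFE2L1 route.

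The 26S proteasome degrades proteins marked with ubiquitin. Its 20S core is a barrel of rings of alpha subunits, which gate the channel, and rings of beta subunits, some of which carry the cutting sites. The 19S regulator that caps the core has a base of ATPases, which unfold substrates, and a lid, which removes ubiquitin. When the proteasome is inhibited, the membrane-bound transcription factor NFE2L1 (also called NRF1) is deglycosylated by NGLY1 and cleaved by DDI2, and it then drives transcription of proteasome subunit genes. Plasma cells and myeloma cells make large amounts of immunoglobulin, and bortezomib, a drug that blocks the proteasome, is used against myeloma.

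RNA sequencing after removal of ribosomal RNA was done on 3 untreated human cell lines with 2 libraries each. RPMI-8226-R is the bortezomib-resistant derivative of RPMI-8226, a myeloma line, and RPMI-8226 is its parent. The remaining line is labelled NCI-BL2171. All 3 are labelled as B lymphocytes and as given no treatment, so no library was made in the presence of bortezomib. How the resistant line was made, and whether it is 1 clone, is not given in the sources used here.

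The libraries held 23952370 to 29052199 estimated reads each, and no member had fewer than 241 reads in any library. Nothing in the labels says that the libraries of 1 line were separate cultures. The p-values below therefore weigh differences between lines only against the spread between libraries of a line, and that spread may be technical. The markers of the labelled cell type were checked in each line. A list of 9 plasma cell genes summed to 33540 to 34605 TPM (a length-corrected share of a library's transcripts) in RPMI-8226-R, 55203 to 57820 TPM in RPMI-8226 and 47.9 to 50.7 TPM in the libraries labelled NCI-BL2171, where JCHAIN, MZB1, IRF4, MS4A1 and PAX5 were listed at 0. A list of 9 erythroid genes summed to 159 to 175 TPM in RPMI-8226-R, 52.8 to 54.1 TPM in RPMI-8226 and 49709 to 51982 TPM in the libraries labelled NCI-BL2171, and GATA1, ALAS2 and HBZ were listed at 0 in both RPMI lines. GATA1, the transcription factor of the erythroid lineage, had 94.1 and 86.6 TPM in the libraries labelled NCI-BL2171, so that defining erythroid markers were high there, while the B cell list summed to 5.07 to 5.08 TPM. Between the RPMI lines the plasma cell sum follows IGLC2, an immunoglobulin light chain, which was lower in RPMI-8226-R. JCHAIN had 3147 and 3208 TPM in RPMI-8226-R against 1383 and 1495 TPM in RPMI-8226. SDC1, IRF4, XBP1 and TNFRSF17 were also higher in RPMI-8226-R. MZB1 was lower there, at 848 and 889 TPM against 1410 and 1444 TPM in RPMI-8226. PRDM1 was lower too, at 10.9 and 12.8 TPM against 25.5 and 24.7 TPM. SLAMF7 was under 1 TPM in both RPMI lines. A list of 8 B cell genes summed to 179 to 186 TPM in RPMI-8226-R against 5467 to 5626 TPM in RPMI-8226. That sum is almost all CD74, while BLK, at 44.9 and 45.7 TPM in RPMI-8226-R, stood above both RPMI-8226 libraries and PAX5 was also higher in RPMI-8226-R, at under 1 TPM. The part of these markers in the differences between the 2 RPMI lines was not tested. Lists of 4 T cell and 4 myeloid genes summed to under 4 TPM in either RPMI line, and the myeloid list, almost all LYZ, to 50.1 to 52.3 TPM in the libraries labelled NCI-BL2171.

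Promoter sequence is shown for 4 members whose changes between the RPMI lines are described below. PSMG1 and PSMG2 are partners in one chaperone that changed in opposite directions after TMM normalisation but not on the TPM scale, and PSMD12 and PSMD1 are subunits of the lid and the base. The windows run from 250 bases before to 50 bases after the start of the gene in RefSeq (build GRCh38.p14) and are written 5′ to 3′ on the strand of the gene. Capitals mark a match to TGACNNNGC, the core of the antioxidant response element to which NFE2L1 and its relative NFE2L2 can bind. The PSMG1 window lies at chr21:39183402-39183701 (minus strand), the PSMG2 window at chr18:12658488-12658787 (plus strand), the PSMD12 window at chr17:67366528-67366827 (minus strand) and the PSMD1 window at chr2:231056617-231056916 (plus strand).
PSMG1: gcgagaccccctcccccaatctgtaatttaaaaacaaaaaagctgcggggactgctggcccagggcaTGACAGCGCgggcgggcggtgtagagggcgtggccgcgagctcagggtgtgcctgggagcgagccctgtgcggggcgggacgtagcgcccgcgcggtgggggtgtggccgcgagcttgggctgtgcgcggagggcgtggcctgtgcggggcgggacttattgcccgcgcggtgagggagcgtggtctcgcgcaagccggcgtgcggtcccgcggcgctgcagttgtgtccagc
PSMG2: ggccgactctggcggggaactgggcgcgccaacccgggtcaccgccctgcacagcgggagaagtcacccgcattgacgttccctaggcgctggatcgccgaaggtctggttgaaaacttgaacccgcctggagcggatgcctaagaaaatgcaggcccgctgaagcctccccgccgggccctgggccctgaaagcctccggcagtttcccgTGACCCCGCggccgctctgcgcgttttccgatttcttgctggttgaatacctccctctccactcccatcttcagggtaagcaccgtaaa
PSMD12: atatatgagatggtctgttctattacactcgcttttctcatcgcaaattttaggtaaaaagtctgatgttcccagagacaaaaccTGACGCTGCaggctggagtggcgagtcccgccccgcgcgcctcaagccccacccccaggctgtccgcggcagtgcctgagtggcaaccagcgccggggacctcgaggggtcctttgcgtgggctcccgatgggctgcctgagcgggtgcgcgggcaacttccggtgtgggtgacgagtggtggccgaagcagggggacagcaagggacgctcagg
PSMD1: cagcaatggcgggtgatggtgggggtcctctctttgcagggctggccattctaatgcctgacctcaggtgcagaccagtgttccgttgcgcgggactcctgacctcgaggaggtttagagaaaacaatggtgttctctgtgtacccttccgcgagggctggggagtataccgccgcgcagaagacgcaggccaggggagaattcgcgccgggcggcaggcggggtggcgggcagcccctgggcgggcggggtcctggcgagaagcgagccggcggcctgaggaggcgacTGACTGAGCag
The match began 183 bases before the start in PSMG1, 39 bases before it in PSMG2, 165 bases before it in PSMD12 and 39 bases after it in PSMD1.

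Windows were found for 40 of the 44 members, 52 windows in all. Searched on both strands, TGACNNNGC occurred in 28.8% of the members' windows, against 13.3% of all 35116 windows of the same length. On the strand of the gene alone the shares were 21.2% and 6.90%. The NF-Y box CCAAT occurred in 40.4% of the members' windows against 34.6% of all windows, and the GC box GGGCGG in 67.3% against 45.0%, both strands searched. GGGCGG and TGACNNNGC may share bases where they adjoin, and a match to these letters is a description and not a binding site. The 14 members with TGACNNNGC were ADRM1, PSMA4, PSMB3, PSMC4, PSMC5, PSMD1, PSMD12, PSMD3, PSMD5, PSMD9, PSME4, PSMG1, PSMG2 and SEM1. The end of the window lay inside a GENCODE transcript of the member for 47 of the 52 windows, and not for a window of SEM1, PSME4, DDI2, PSMA5 and PSMC1.

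RPMI-8226-R was compared with RPMI-8226 to ask which proteasome genes differ between a bortezomib-resistant line and its parent when neither is treated. Most members were higher in RPMI-8226-R. By edgeR's quasi-likelihood test with Benjamini-Hochberg adjustment over 20081 genes, 29 of the 44 members rose, 5 fell and 10 did not pass, so 77.3% of members were called against 65.6% of all tested genes. By direction, 28.5% of all tested genes rose and 37.2% fell. The median log2 fold change was 0.39 over the members and -0.12 over all tested genes. Of the members that changed by at least 1.5-fold, 13 rose and 2 fell, where 19.7% of all tested genes rose and 29.3% fell by as much. Fewer cells and less RNA per cell cannot be told apart in such bulk libraries, and levels are relative to the other RNA of a library.

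The members together took 0.552 and 0.518% of the reads in the 2 RPMI-8226-R libraries, against 0.369 and 0.369% in RPMI-8226 and 0.582 and 0.586% in the libraries labelled NCI-BL2171. The share was thus lowest in RPMI-8226, and no line overlapped another. The direction of the smallest changes depends on the scale. On the log2(TPM + 1) scale the median over all tested genes was 0.08, against -0.12 after TMM normalisation (the trimmed-mean scaling used for the counts). Among 10760 genes that averaged 5 TPM or more, the median shift between the scales was 0.36, and among the members it was 0.37. On the TPM scale 39 members rose and 2 fell, and of all calls 60.6% were rises against 43.4% after TMM. The 10 members that did not pass after TMM all rose on that scale, and falls smaller than about 0.37 in size can change side with the scale. Without the libraries labelled NCI-BL2171 in the fit, 33 members rose and 4 fell.

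**Figure D1:**
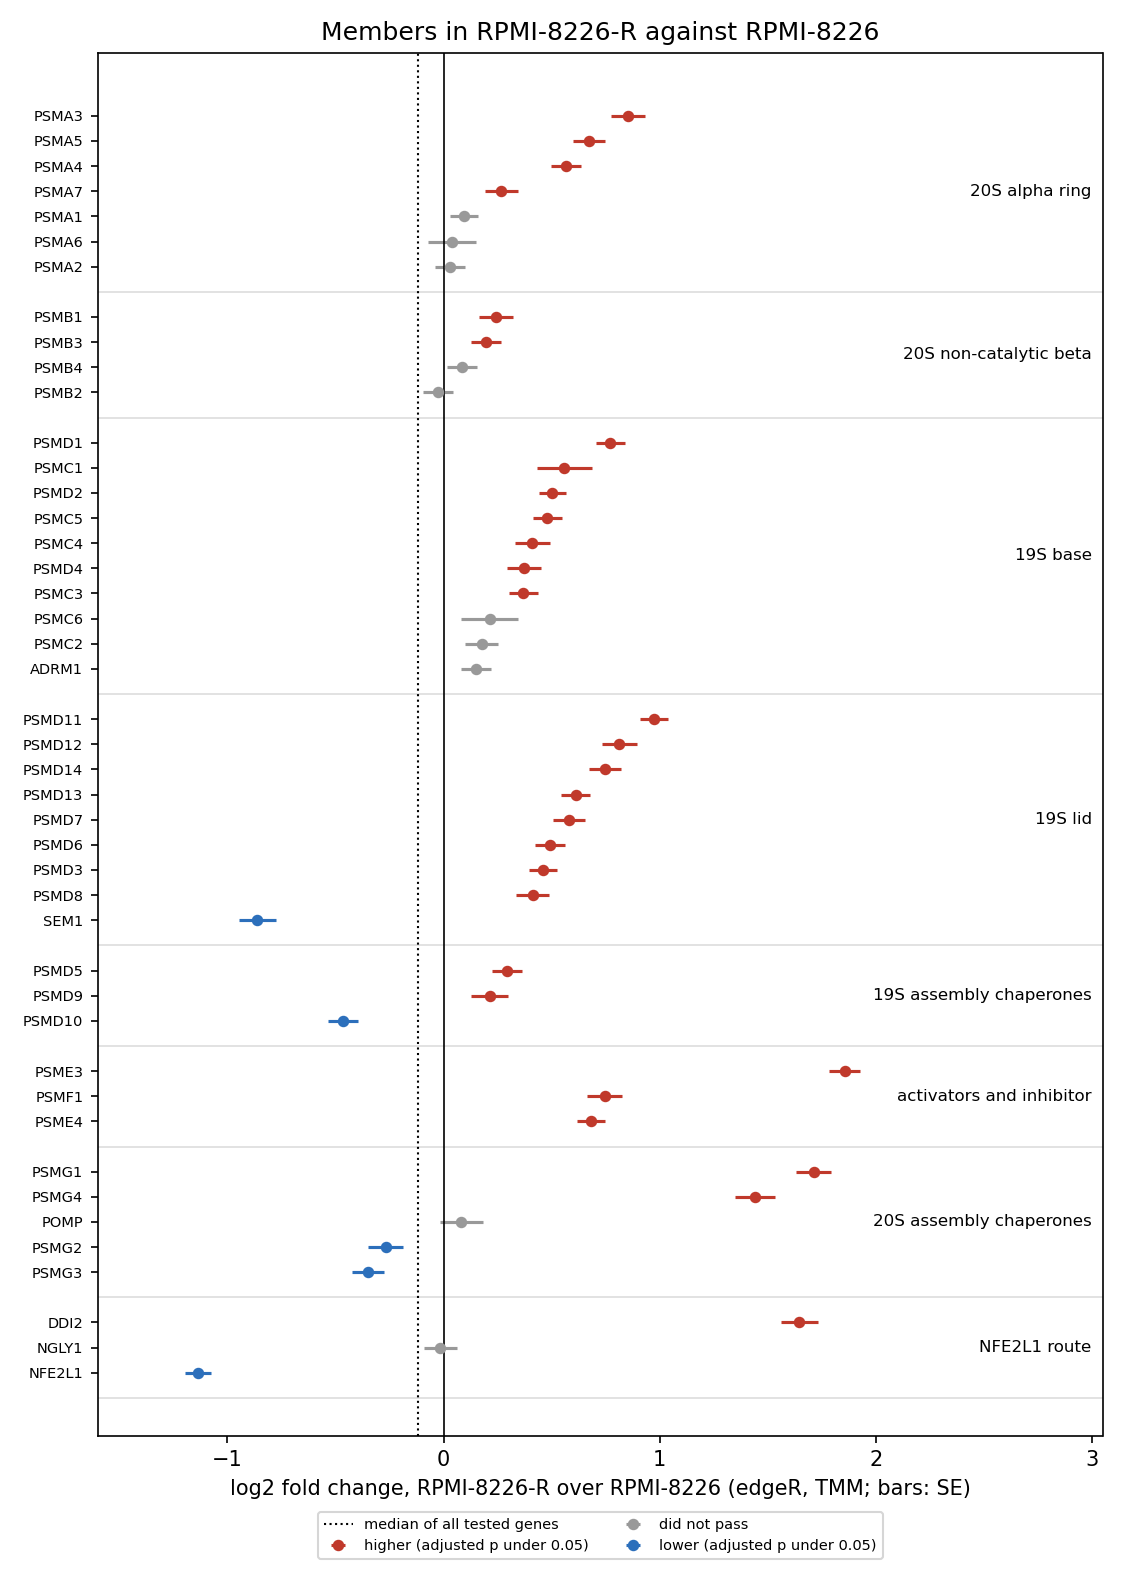
Log2 fold change of each of the 44 members in RPMI-8226-R over RPMI-8226 (points, edgeR after TMM normalisation, with 1 SE as bars), grouped by role and coloured by call, with the median of all tested genes at -0.12 as a dotted line. The 19S lid stands to the right of 0 except SEM1, and the 20S assembly chaperones lie on both sides on this TMM scale, PSMG2 and PSMG3 with the other sign on the TPM scale.

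The alpha ring of the 20S core, which forms the gate of the channel, had 4 of 7 members higher, 0 lower and 3 that did not pass (median log2 fold change 0.27). Thus 57.1% were called. Of all tested genes 65.6% were called and 28.5% rose. PSMA3 (chromosome 14, 58244831 to 58272012, GRCh38, GENCODE 29) had 77.7 and 69.6 TMM-normalised CPM (reads scaled to library size) in RPMI-8226-R, against 40.7 and 40.8 in RPMI-8226 and 56.8 and 55.7 in the libraries labelled NCI-BL2171. Its level in RPMI-8226-R stood above both other lines without overlap, and it rose 1.81-fold against RPMI-8226 (log2 fold change 0.85 ± 0.08 SE, edgeR adjusted p = 4.3e-09). PSMA5 had 98.7 and 86.9 CPM in RPMI-8226-R, against 58.3 and 58.1 CPM in RPMI-8226 and 146 and 151 CPM in the libraries labelled NCI-BL2171. It rose 1.59-fold (0.67 ± 0.07, edgeR adjusted p = 6.2e-08) and stayed below the third line. PSMA4 (1.48-fold) and PSMA7 (1.20-fold) also rose, PSMA7 without a call when RPMI-8226-R library 1 is left out (0.14), while PSMA1, PSMA2 and PSMA6 had log2 fold changes of 0.10, 0.03 and 0.04 and did not pass.

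The 4 non-catalytic beta subunits, which complete the beta rings beside the cutting subunits, moved least. PSMB1 and PSMB3 rose by 0.24 and 0.20 on the log2 scale, and both lose the call when RPMI-8226-R library 1 is left out (0.10 and 0.11). They also lose it when either RPMI-8226 library is left out, at 0.24 to 0.26 for PSMB1 and 0.18 to 0.22 for PSMB3. PSMB2 and PSMB4 had log2 fold changes of -0.03 and 0.09 and did not pass. The constitutive catalytic subunits, given for comparison, all 3 rose: PSMB5, which bortezomib binds, by 1.37-fold, PSMB6 by 1.40-fold and PSMB7 by 1.5-fold. Of all tested genes 28.5% rose.

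In the 19S base, 7 of 10 members rose, 0 fell and 3 did not pass (median 0.39). Thus 70% were called, near the 65.6% of all tested genes, of which 28.5% rose. PSMD1, a large scaffold that binds ubiquitin receptors, had 136 and 129 CPM in RPMI-8226-R, against 79.3 and 75.8 CPM in RPMI-8226 and 120 and 128 CPM in the libraries labelled NCI-BL2171. It rose 1.71-fold against RPMI-8226 (0.77 ± 0.07, edgeR adjusted p = 2.7e-09) with no overlap between the RPMI lines. The ATPases PSMC1, PSMC3, PSMC4 and PSMC5 rose by 1.29 to 1.47-fold, PSMD2 rose 1.42-fold and the ubiquitin receptor PSMD4 rose 1.29-fold. The ATPases PSMC2 and PSMC6 had log2 fold changes of 0.18 ± 0.08 and 0.21 ± 0.13 and did not pass. ADRM1, another ubiquitin receptor, had 98.6 and 93.6 CPM in RPMI-8226-R, against 88.0 and 85.3 CPM in RPMI-8226 and 63.8 and 60.4 CPM in the libraries labelled NCI-BL2171. The RPMI lines did not overlap for ADRM1, yet the log2 fold change of 0.15 ± 0.07 did not pass (edgeR adjusted p = 0.063).

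In the 19S lid, every member passed the test, with 8 of 9 members higher, 1 lower and a median log2 fold change of 0.58. Of all tested genes 65.6% were called and 28.5% rose. PSMD11 (chromosome 17, 32444261 to 32483318), a scaffold subunit of the lid, had 216 and 202 CPM in RPMI-8226-R, against 107 and 106 CPM in RPMI-8226 and 135 and 143 CPM in the libraries labelled NCI-BL2171. It rose 1.96-fold (0.97 ± 0.07, edgeR adjusted p = 3.4e-11) and was highest in RPMI-8226-R in both libraries. PSMD12, a scaffold subunit of the same kind, had 114 and 97.0 CPM in RPMI-8226-R, against 59.6 and 60.2 CPM in RPMI-8226 and 72.4 and 80.5 CPM in the libraries labelled NCI-BL2171, a 1.76-fold rise over the parent (0.81 ± 0.08, edgeR adjusted p = 1.6e-08). PSMD14 is the deubiquitinase that releases ubiquitin chains from substrates. It had 128 and 110 CPM in RPMI-8226-R, against 71.2 and 71.0 CPM in RPMI-8226 and 104 and 101 CPM in the libraries labelled NCI-BL2171, and rose 1.68-fold against the parent (0.75 ± 0.07, edgeR adjusted p = 1.6e-08). PSMD13 had 128 and 120 CPM in RPMI-8226-R, against 79.6 and 82.7 CPM in RPMI-8226 and 196 and 197 CPM in the libraries labelled NCI-BL2171, and rose 1.53-fold (0.61 ± 0.07, edgeR adjusted p = 5.6e-08). Also in the lid, PSMD3, PSMD6, PSMD7 and PSMD8 rose by 1.33 to 1.49-fold.

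SEM1 (also called DSS1; chromosome 7, 96481626 to 96709891), the smallest lid subunit and also a partner of BRCA2, went the other way. It had 63.3 and 50.7 CPM in RPMI-8226-R, against 99.6 and 107 CPM in RPMI-8226 and 137 and 138 CPM in the libraries labelled NCI-BL2171. The 3 lines did not overlap, and SEM1 fell 1.82-fold in RPMI-8226-R against RPMI-8226 (log2 fold change -0.86 ± 0.09, edgeR adjusted p = 5.2e-08). On the log2(TPM + 1) scale the change was -0.48. Within a library, SEM1 TPM was 2.24 and 1.96 times the median of the other 8 lid subunits in RPMI-8226-R, against 5.13 and 6.02 times in RPMI-8226 and 6.12 and 6.23 times in the libraries labelled NCI-BL2171. This ratio needs no scaling between libraries and did not overlap between RPMI-8226-R and either other line. SEM1 TPM itself was 253 and 210 in RPMI-8226-R against 308 and 338 in RPMI-8226. The other lid subunits rose, so the ratio reflects both changes. With 2 libraries against 2 the smallest exact permutation p is 0.33, so no test is given for such ratios.

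Of the chaperones that assemble the 19S base, PSMD5 rose 1.23-fold, PSMD9 rose 1.16-fold and PSMD10 fell 1.38-fold. PSMD10 (gankyrin) had 71.5 and 68.4 CPM in RPMI-8226-R, against 93.6 and 99.6 CPM in RPMI-8226 and 124 and 132 CPM in the libraries labelled NCI-BL2171 (log2 fold change -0.47 ± 0.07, edgeR adjusted p = 5.1e-06). Its change was -0.10 on the log2(TPM + 1) scale and did not pass there, so its fall is relative to the median gene. Set against the median base subunit of the same library, PSMD10 TPM was 0.703 and 0.668 in RPMI-8226-R. The ratio was 1.12 and 1.19 in RPMI-8226 and 1.14 and 1.11 in the libraries labelled NCI-BL2171. PSMD10 TPM itself was 66.5 and 66.3 in RPMI-8226-R against 70.3 and 71.7 in RPMI-8226. The lower ratio against RPMI-8226 thus comes mostly from higher base subunits. PSMD5, whose deposited length also differed (1931 and 1865 bases in RPMI-8226-R, against 1561 and 1598 bases in RPMI-8226), had a log2 fold change of 0.05 and no call in a fit that adjusts for length. PSMD9 loses its call when RPMI-8226-R library 1 or either RPMI-8226 library is left out, at log2 fold changes of 0.19 to 0.24 against 0.21 with all libraries.

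All 3 activators and inhibitors rose, where 28.5% of all tested genes rose. PSME3 (PA28 gamma, ENSG00000131467.12; chromosome 17, 42824385 to 42843758), a nuclear cap that opens the core without ubiquitin, changed more than any other member. It had 233 and 219 CPM in RPMI-8226-R, against 60.3 and 64.7 CPM in RPMI-8226 and 108 and 117 CPM in the libraries labelled NCI-BL2171. Both RPMI-8226-R libraries were above every other library, and PSME3 rose 3.62-fold against RPMI-8226 (log2 fold change 1.86 ± 0.07, edgeR adjusted p = 3.1e-15). Relative to the median alpha ring subunit of the same library, PSME3 TPM was 0.352 and 0.401 in RPMI-8226-R, against 0.186 and 0.163 in RPMI-8226 and 0.204 and 0.266 in the libraries labelled NCI-BL2171. PSME3 has 53 tested neighbours within 1 Mb, of which 13 rose and 28 fell, with a median log2 fold change of -0.46.

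PSME4 (PA200), a nuclear cap that also binds histones, had 133 and 134 CPM in RPMI-8226-R, against 85.4 and 80.8 CPM in RPMI-8226 and 147 and 151 CPM in the libraries labelled NCI-BL2171. It rose 1.61-fold over the parent (0.68 ± 0.07, edgeR adjusted p = 8.7e-09), or 0.34 on the log2 scale with an offset for effective length. PSMF1 (PI31), first known as an inhibitor of the core in the test tube, had 60.9 and 61.5 CPM in RPMI-8226-R, against 33.9 and 39.2 CPM in RPMI-8226 and 73.5 and 74.8 CPM in the libraries labelled NCI-BL2171. It rose 1.68-fold (0.75 ± 0.08, edgeR adjusted p = 6.1e-08). In CPM, RPMI-8226-R lay between the other lines for both genes. In TPM this held for PSME4, while PSMF1 was highest in RPMI-8226-R, at 92.4 and 97.3 TPM against 37.8 and 51.6 TPM in RPMI-8226 and 86.5 and 87.8 TPM in the libraries labelled NCI-BL2171. The other activator genes, PSME1 and PSME2, which cap immunoproteasomes, are not members: PSME1 fell 1.48-fold and PSME2, at a log2 fold change of -0.13, did not pass.

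The chaperones of 20S assembly did not move together. Alpha rings are built with the help of 2 dimers, PSMG1 with PSMG2 and PSMG3 with PSMG4, and POMP then adds the beta subunits. In each dimer, 1 gene rose by at least 2.72-fold in RPMI-8226-R and its partner fell slightly after TMM and not on the TPM scale. PSMG1 (ENSG00000183527.12; chromosome 21, 39174769 to 39183851) had 128 and 109 CPM in RPMI-8226-R, against 35.0 and 37.1 CPM in RPMI-8226 and 72.8 and 71.7 CPM in the libraries labelled NCI-BL2171. It rose 3.28-fold over RPMI-8226 (log2 fold change 1.71 ± 0.08, edgeR adjusted p = 1.3e-13), with no overlap among the 3 lines. PSMG2 had 51.0 and 45.2 CPM in RPMI-8226-R, against 58.9 and 56.8 CPM in RPMI-8226 and 47.3 and 49.7 CPM in the libraries labelled NCI-BL2171. It fell 1.20-fold (log2 fold change -0.27 ± 0.08, edgeR adjusted p = 0.0062), but its difference was 0.13 on the log2(TPM + 1) scale and its direction thus depends on the scaling.

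PSMG4 (ENSG00000180822.12; chromosome 6, 3231403 to 3303373) had 47.4 and 50.3 CPM in RPMI-8226-R, against 18.3 and 17.7 CPM in RPMI-8226 and 29.5 and 31.3 CPM in the libraries labelled NCI-BL2171. It rose 2.72-fold over RPMI-8226 (1.44 ± 0.09, edgeR adjusted p = 1.4e-11). PSMG3 had 49.2 and 50.6 CPM in RPMI-8226-R, against 64.8 and 62.2 CPM in RPMI-8226 and 51.3 and 53.2 CPM in the libraries labelled NCI-BL2171. It fell 1.27-fold (-0.35 ± 0.07, edgeR adjusted p = 3.4e-04), and its difference of 0.07 on the log2(TPM + 1) scale has the other sign. Each of the falling partners stayed within 1.27-fold of RPMI-8226.

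The balance within each dimer can be read without scaling. PSMG1 TPM was 2.71 and 2.62 times PSMG2 TPM in RPMI-8226-R, against 0.642 and 0.723 times in RPMI-8226 and 1.68 and 1.59 times in the libraries labelled NCI-BL2171. PSMG4 TPM was 0.874 and 0.954 times PSMG3 TPM in RPMI-8226-R, against 0.286 and 0.326 times in RPMI-8226 and 0.483 and 0.462 times in the libraries labelled NCI-BL2171. In both dimers RPMI-8226-R was highest and RPMI-8226 lowest, without overlap. POMP had 32.9 and 28.5 CPM in RPMI-8226-R, against 26.4 and 31.7 CPM in RPMI-8226 and 59.9 and 61.2 CPM in the libraries labelled NCI-BL2171. The RPMI lines overlapped for POMP and its log2 fold change of 0.08 ± 0.10 did not pass (edgeR adjusted p = 0.48). Relative to the median alpha ring subunit, POMP TPM was 0.165 and 0.169 in RPMI-8226-R against 0.242 and 0.288 in RPMI-8226. In the libraries labelled NCI-BL2171 it was 0.361 and 0.358. POMP TPM itself was not lower in RPMI-8226-R than in RPMI-8226, at 38.9 and 36.4 against 26.5 and 31.6.

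**Figure D2:**
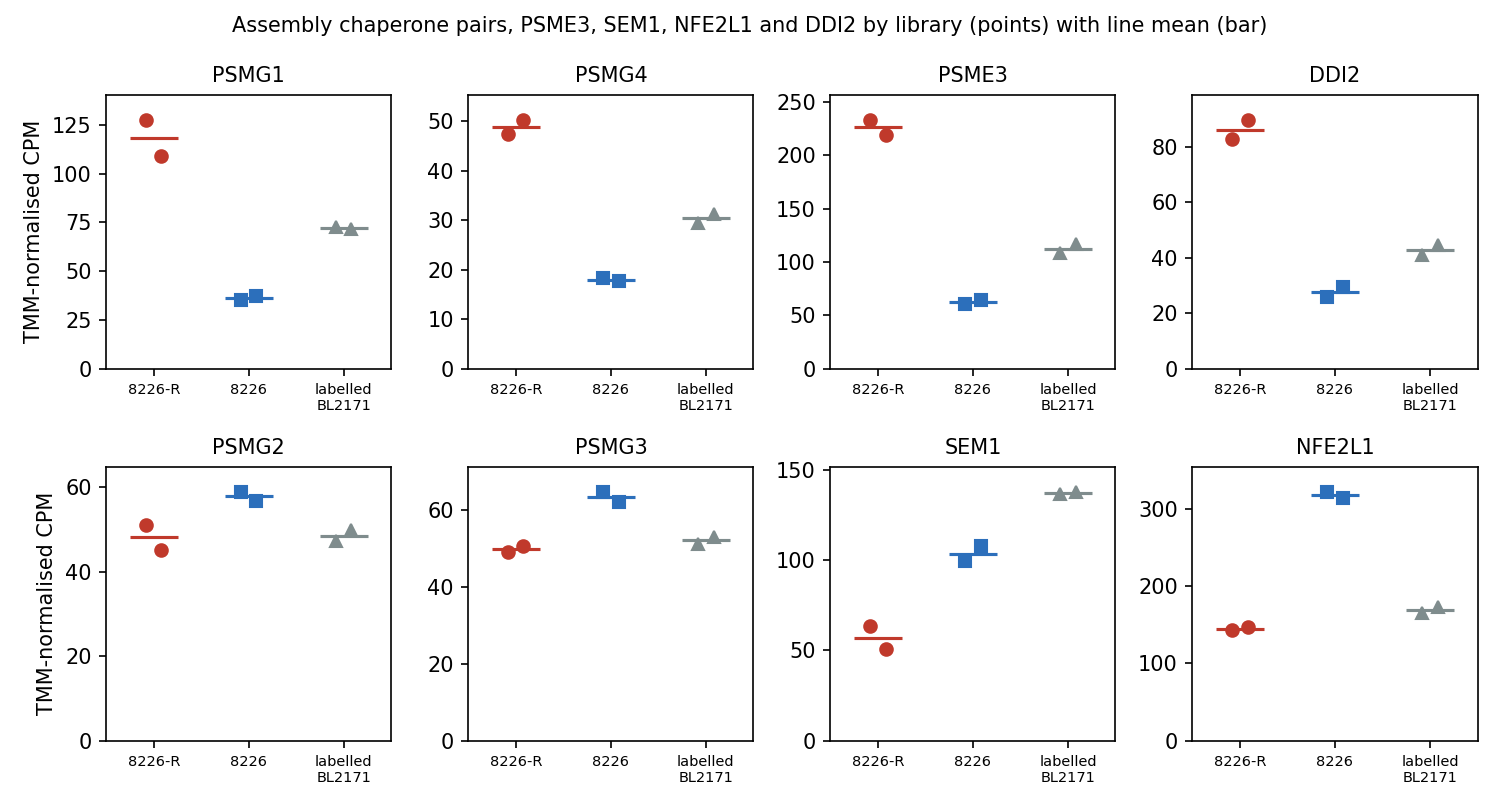
TMM-normalised CPM of 8 members in each library (points) with the mean of the line (bar), RPMI-8226-R at the left, RPMI-8226 in the middle and the libraries labelled NCI-BL2171 at the right. PSMG1, PSMG4, PSME3 and DDI2 are highest in RPMI-8226-R, SEM1 is lowest there, and NFE2L1 is highest in RPMI-8226. CPM is not corrected for length, and in TPM DDI2 overlapped between RPMI-8226-R and the libraries labelled NCI-BL2171.

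**Figure D3:**
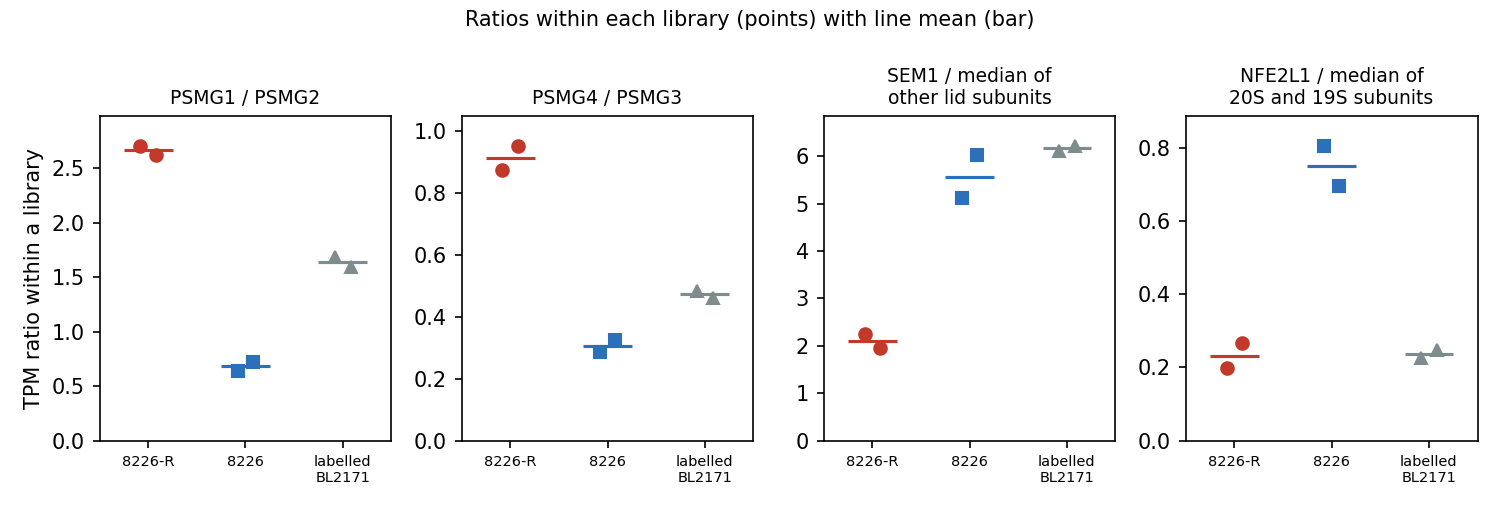
Ratios of TPM within each library (points, with the line mean as a bar) for the partners of both 20S assembly dimers, for SEM1 over the median of the other 8 lid subunits and for NFE2L1 over the median of 30 subunits of the 20S and 19S. The PSMG1 over PSMG2 ratio is 2.71 and 2.62 in RPMI-8226-R, against 0.642 and 0.723 in RPMI-8226.

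In the NFE2L1 route, the transcription factor fell and the protease that activates it rose. NFE2L1 (ENSG00000082641.16; chromosome 17, 48048329 to 48061487) had 143 and 147 CPM in RPMI-8226-R, against 323 and 315 CPM in RPMI-8226 and 166 and 174 CPM in the libraries labelled NCI-BL2171. Both RPMI-8226 libraries stood above every other library, and NFE2L1 fell 2.20-fold in RPMI-8226-R (log2 fold change -1.14 ± 0.06, edgeR adjusted p = 1.1e-12). The fall was smaller, -0.62, on the log2(TPM + 1) scale, and passed there too. Relative to the median of 30 subunits of the 20S and 19S, NFE2L1 TPM was 0.198 and 0.267 in RPMI-8226-R, against 0.807 and 0.697 in RPMI-8226 and 0.225 and 0.248 in the libraries labelled NCI-BL2171. NFE2L1 TPM itself was 32.1 and 43.3 in RPMI-8226-R against 61.6 and 54.4 in RPMI-8226. The subunits rose on that scale, all but SEM1, so the ratio reflects both changes. The NFE2L1 mRNA says nothing of how much of the protein is cleaved or in the nucleus, which was not measured.

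DDI2 (ENSG00000197312.12; chromosome 1, 15617500 to 15669044), the protease that cuts NFE2L1, had 82.8 and 89.8 CPM in RPMI-8226-R, against 25.8 and 29.4 CPM in RPMI-8226 and 41.1 and 44.6 CPM in the libraries labelled NCI-BL2171. It rose 3.13-fold against RPMI-8226 (1.65 ± 0.09, edgeR adjusted p = 5.8e-13). The deposited length of DDI2, an average over its transcripts weighted by use, was 9301 and 9571 bases in RPMI-8226-R, against 6560 and 6140 bases in RPMI-8226 and 3693 and 5107 bases in the libraries labelled NCI-BL2171. With an offset for effective length the log2 fold change was 1.11, and DDI2 still rose. DDI2 overlaps RSC1A1 on the same strand, and reads of the 2 genes may be split between them. NGLY1, the enzyme that removes sugars from NFE2L1, had 52.5 and 51.8 CPM in RPMI-8226-R, against 50.6 and 54.8 CPM in RPMI-8226 and 64.5 and 63.7 CPM in the libraries labelled NCI-BL2171. The RPMI lines overlapped for NGLY1 and its log2 fold change of -0.02 ± 0.08 did not pass (edgeR adjusted p = 0.89).

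Of 11 further genes of the route, 4 rose and 7 fell in RPMI-8226-R against RPMI-8226. Of all tested genes 28.5% rose and 37.2% fell. The ligases of NFE2L1 turnover BTRC and FBXW7 rose 3.46-fold and 2.08-fold. BTRC had a mean of 8.58 CPM in RPMI-8226-R against 2.48 CPM in RPMI-8226. Its deposited length was 2938 and 4211 bases in RPMI-8226-R against 1754 and 1605 bases in RPMI-8226, for which the 3.46-fold is not corrected. In TPM it had 3.14 and 2.33 in RPMI-8226-R against 1.11 and 1.55 in RPMI-8226. The segregase VCP, which extracts NFE2L1 from the membrane, rose 1.23-fold. The 3 small MAF partners of the NFE2 family all fell, MAFF by 5.99-fold, MAFG by 1.60-fold and MAFK by 1.59-fold. The relatives NFE2L2 and NFE2L3 fell 2.06-fold and 1.43-fold. MAFF, for example, had 9.35 and 8.66 CPM in RPMI-8226-R, against 52.3 and 55.5 CPM in RPMI-8226.

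Of 14 factors that bind the proteasome or bring substrates to it, 5 were higher, 5 lower and 4 did not pass. Thus 71.4% were called, near the 65.6% of all tested genes, of which 28.5% rose and 37.2% fell. The deubiquitinases USP14 and UCHL5 rose 1.64-fold and 1.90-fold, the ligase UBE3C rose 2.68-fold and ECPAS rose 2.35-fold. These values are not corrected for length. UBE3C had a deposited length of 3538 and 3235 bases in RPMI-8226-R against 2056 and 1791 bases in RPMI-8226. Its TPM was 39.6 and 48.2 in RPMI-8226-R against 22.3 and 24.1 in RPMI-8226. ECPAS had 4048 and 4388 bases in RPMI-8226-R against 3407 and 3209 bases in RPMI-8226. ZFAND2A, a heat shock and arsenite responsive factor, fell 2.66-fold. Among the immune catalytic and activator subunits 1 of 5 rose and 2 fell, so 60% were called, also near the share of all tested genes. The tissue-restricted subunits PSMA8 and PSMB11 were too low to test, at no more than 0.082 TPM in any library.

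The levels of the members can be compared with each other in TPM, which corrects for gene length. Summed over the alpha ring, TPM were 1600.3 and 1521 in RPMI-8226-R, against 923 and 938 in RPMI-8226 and 1887 and 1972 in the libraries labelled NCI-BL2171. The lid summed to 1151 and 1098 TPM in RPMI-8226-R, against 763 and 790 TPM in RPMI-8226 and 1384 and 1427 TPM in the libraries labelled NCI-BL2171. The 20S assembly chaperones summed to 440.3 and 424 TPM in RPMI-8226-R, against 225 and 222 TPM in RPMI-8226 and 326 and 346 TPM in the libraries labelled NCI-BL2171. The base summed to 1403 and 1367 TPM in RPMI-8226-R, against 782 and 757 TPM in RPMI-8226 and 1252 and 1276 TPM in the libraries labelled NCI-BL2171. RPMI-8226 was lowest in each of these 4 sums, and RPMI-8226-R was highest in those of the base and the chaperones. In TMM-normalised CPM the base overlapped, at 1030.1 and 944 in RPMI-8226-R, 735 and 727 in RPMI-8226 and 1028 and 1003 in the libraries labelled NCI-BL2171.

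Subunits that are present in equal number in the complex had unequal mRNA. In the lid, the lowest in TPM was PSMD12 and the highest SEM1 in each line. They were 3.10-fold apart in RPMI-8226-R, 8.68-fold in RPMI-8226 and 8.85-fold in the libraries labelled NCI-BL2171. In TMM-normalised CPM, which is not corrected for length, SEM1 was the lowest in RPMI-8226-R, at a mean of 57.0. In the alpha ring the mean TPM ran from PSMA6 to PSMA1, 5.98-fold apart in RPMI-8226-R, 5.71-fold in RPMI-8226 and 10.0-fold in the libraries labelled NCI-BL2171. In the base it ran from PSMC1 up, over a range of 22.2 to 24.8-fold in the 3 lines. The low values of PSMA6 and PSMC1 are bound up with pseudogenes, as given next.

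**Figure D4:**
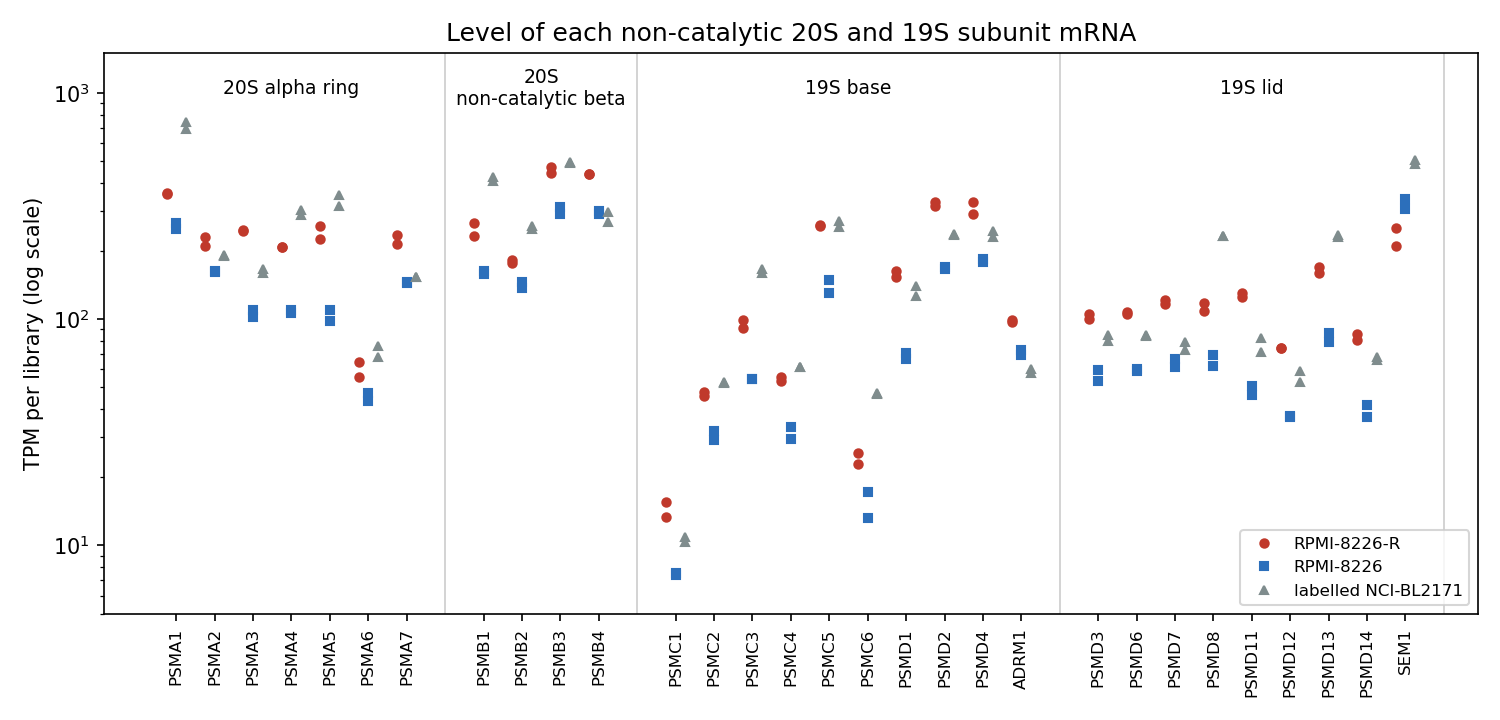
TPM of each non-catalytic 20S and 19S subunit in every library on a log axis, with RPMI-8226-R left of RPMI-8226 and of the libraries labelled NCI-BL2171 for each gene. Every subunit but SEM1 is higher in RPMI-8226-R than in RPMI-8226 on this scale, and PSMC1 is the lowest in each line.

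Of the members, 17 have genes in the tables that are named as their pseudogenes. Reads at such copies were 84.9% of the reads of PSMC1 and its 13 copies together on average over the libraries (83.6 to 86.6%), and 56.3% for PSMA6 (53.0 to 59.2%). They were 25.9% for PSMA2, 20.2% for PSMC2 and 15.7% for PSMD12. When the TPM of the copies was added, the spread within the alpha ring narrowed to 1.99-fold in RPMI-8226-R, 2.5-fold in RPMI-8226 and 4.71-fold in the libraries labelled NCI-BL2171. The spread within the base narrowed to 13.3-fold in RPMI-8226-R, 12.0-fold in RPMI-8226 and 5.63-fold in the libraries labelled NCI-BL2171, with PSMC6 in place of PSMC1 as the lowest. In the lid, PSMD14 was then the lowest in both RPMI lines, and PSMD12 stayed lowest in the libraries labelled NCI-BL2171. With the copies' reads added to each member 29 members rose and 5 fell in RPMI-8226-R against RPMI-8226, as before. The levels of PSMC1 and PSMA6 are therefore uncertain, and whether such reads came from the gene or its copies was not tested.

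**Figure D5:**
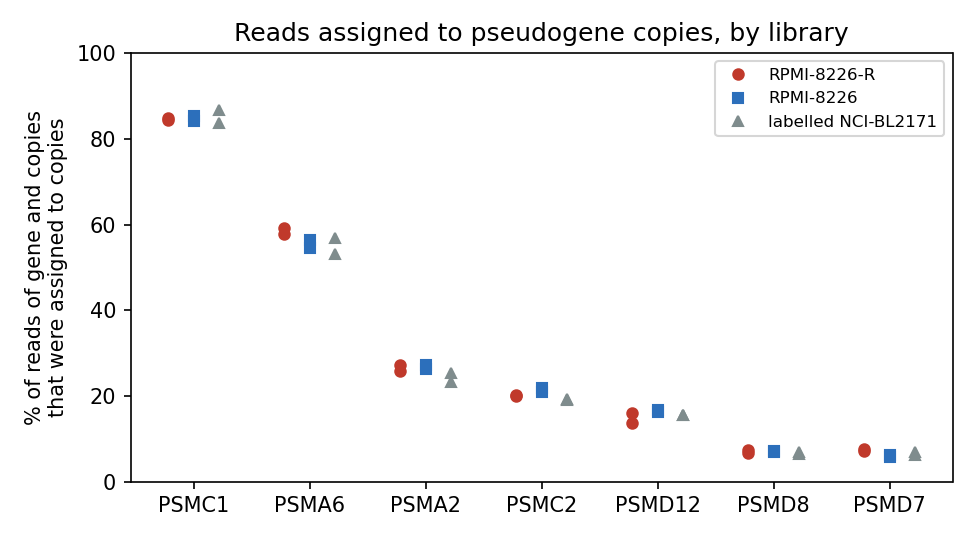
Share of the reads of a member and its named pseudogene copies that the deposited tables assign to the copies, for the 7 members with the highest shares, by library (percent). PSMC1 stands near 85 and PSMA6 near 56, with little difference between lines.

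Other genes overlap some members. There were 20 members that overlap another tested gene, 17 on the opposite strand and 5 on the same strand, and whether reads were counted by strand is not given in the sources used here. PSMG4 shares its locus with TUBB2B on the opposite strand, which fell in RPMI-8226-R (4062 and 4293 reads, against 12821 and 12615 reads in RPMI-8226) while PSMG4 rose. PSMC5 overlaps FTSJ3, whose log2 fold change was 1.29, and PSME3 overlaps BECN1, at 0.20. Reads of such pairs cannot be told apart here without strand. The median log2 fold change of the tested genes within 1 Mb was -0.24 around PSMG1, -0.01 around PSMG4 and -0.95 around DDI2. Over all tested genes it was -0.12. It was 0.68 around PSMD12, 0.44 around PSMD9 and 0.37 around PSMB1. Whether members change with their neighbourhoods was not tested.

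Matches to TGACNNNGC were set beside the calls. Among members with a window, a match was found in 11 of 26 that rose in RPMI-8226-R, in 2 of 4 that fell and in 1 of 10 that did not pass. PSMG1 and PSMG2, whose sequences stand above, both have a match and changed in opposite directions after TMM. PSME3, PSMG4 and DDI2, which rose 2.72 to 3.62-fold, have no match in their windows, of which that of DDI2 does not end inside a GENCODE transcript. No test was made over these counts.

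RPMI-8226 was compared with the libraries labelled NCI-BL2171, which the design places as the non-myeloma line. Most members were lower in RPMI-8226: 5 rose, 34 fell and 5 did not pass, where 76.7% of all tested genes were called, 41.1% higher and 35.6% lower. At a threshold of 1.5-fold, 1 member rose and 20 fell, where 34.5% of all tested genes rose and 27.9% fell by as much. The median log2 fold change was -0.52 over the members and 0.09 over all tested genes. Since erythroid markers are high in those libraries and 7 of the 9 plasma cell markers are under 1 TPM there, the difference between cell types and that between a myeloma line and its control cannot be told apart.

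The members that rose in RPMI-8226 were NFE2L1 (1.88-fold), ADRM1 (1.39-fold), PSMG3 (1.22-fold), PSMG2 (1.19-fold) and PSMB4 (1.19-fold). Of these, NFE2L1, at 323 and 315 CPM in RPMI-8226 against 166 and 174 CPM in the libraries labelled NCI-BL2171, was 0.91 ± 0.06 higher on the log2 scale (edgeR adjusted p = 1.4e-11). NFE2L1 and ADRM1 also passed on the log2(TPM + 1) scale, where PSMG2 and PSMB4 did not pass and PSMG3 had a difference of -0.04. PSMB4 had 316 and 344 CPM in RPMI-8226, against 294 and 262 CPM in the libraries labelled NCI-BL2171. The largest falls were in PSMD8, a lid subunit, at 65.9 and 60.2 CPM in RPMI-8226 against 210 and 197 CPM in the libraries labelled NCI-BL2171 (3.23-fold, log2 fold change -1.69 ± 0.08, edgeR adjusted p = 1.4e-14). PSMD5, the base chaperone, had 48.0 and 46.0 CPM in RPMI-8226, against 130 and 131 CPM in the libraries labelled NCI-BL2171 (2.78-fold lower). The ATPase PSMC6 had 11.5 and 9.53 CPM in RPMI-8226, against 27.8 and 27.6 CPM in those libraries (2.63-fold lower). PSMA5 fell 2.55-fold and PSMD13 fell 2.42-fold, with the values given above. All 5 were called in each of the 20 alternative settings.

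Against the same libraries labelled NCI-BL2171, RPMI-8226-R had members on both sides: 17 rose, 23 fell and 4 did not pass, where 77.4% of all tested genes were called, 39.2% higher and 38.2% lower. The median log2 fold change was -0.18 over the members and 0.0042 over all tested genes. At a threshold of 1.5-fold, 6 members rose and 13 fell, where 32.6% of all tested genes rose and 31.1% fell by as much. On the log2(TPM + 1) scale 18 members rose and 15 fell, and with upper-quartile factors 12 rose and 23 fell. This comparison and the one above share those 2 libraries, so their values are not independent.

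The largest rises in RPMI-8226-R over the libraries labelled NCI-BL2171 were in DDI2 (2.02-fold), PSME3 (2.01-fold), PSMG1 (1.64-fold), PSMG4 (1.61-fold) and ADRM1 (1.55-fold). The DDI2 rise is not seen on a length-corrected scale, where the difference was 0.01 in log2(TPM + 1) and -0.12 with an effective-length offset. PSME3 had 233 and 219 CPM in RPMI-8226-R, against 108 and 117 CPM in the libraries labelled NCI-BL2171 (log2 fold change 1.01 ± 0.07, edgeR adjusted p = 1.3e-11). The largest falls were in PSMD8 (2.42-fold), SEM1 (2.41-fold), PSMC6 (2.26-fold), PSMD5 (2.26-fold) and PSMA1 (2.23-fold). PSMD8 had 89.7 and 78.4 CPM, PSMC6 had 13.2 and 11.3 CPM and PSMD5 had 56.6 and 58.7 CPM in RPMI-8226-R, each below both libraries labelled NCI-BL2171, whose values are given above. PSMA1, an alpha ring subunit, had 158 and 147 CPM in RPMI-8226-R, against 338 and 344 CPM in the libraries labelled NCI-BL2171, with no overlap.

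Set side by side by group, the 19S lid had 6 members higher and 3 lower in RPMI-8226-R, and 0 higher and 8 lower in RPMI-8226, each against the libraries labelled NCI-BL2171. Against the same libraries, 39.2% of all tested genes were higher and 38.2% lower in RPMI-8226-R, and 41.1% and 35.6% in RPMI-8226. The alpha ring had 2 higher and 4 lower in RPMI-8226-R, and 0 higher and 5 lower in RPMI-8226. The 3 chaperones of the 19S base were all lower in both RPMI lines. The 5 immune catalytic and activator subunits, which are not members, were higher in both RPMI lines, with PSMB8 up 17.9-fold in RPMI-8226-R and 16.7-fold in RPMI-8226.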

How the data were processed

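Total RNA depleted of ribosomal RNA was sequenced in 6 libraries, 2 per line, per the labels. Each deposited table lists estimated counts of reads, TPM, length and effective length for every gene, per the file headers; lengths are another deposited unit, in bases. GRCh38.p13 is the build in the submitters' processing notes. The quantifier, annotation and strand setting are not given in the sources used. The tables hold 61544 genes, of which 46 copies on the Y chromosome were added to their X copies. Expected counts were rounded to whole numbers. The test was the robust quasi-likelihood test of edgeR 4.0.16 (R 4.3.3, TMM factors, filterByExpr with a minimum count of 10, all 6 libraries, 3 residual degrees of freedom, two-sided, Benjamini-Hochberg adjustment at 0.05 over 20081 genes). The typical coefficient of variation between libraries was 6.81%. All 44 members passed the filter. Alternatives changed the scaling, the test (limma 3.58.1, DESeq2 1.42.0), the filter, the length offset and the libraries fitted, and added a replicate block. The test was also run on simulated data in which few genes changed. That run does not bear on the choice of scale here, where most genes were called.

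Genes with values in every library are, by rule, the NFE2L1 route, the 20S chaperones, PSME3, PSME4, PSMF1, SEM1 and ADRM1 whatever their change, and any other called member that changed at least 1.5-fold. In the other comparisons they are the 5 largest rises and falls. PSMD10 and MAFF were added after their values were seen. The lists of genes that are not members were meant for counts and medians alone. The other genes named from them, such as BTRC and UBE3C, are thus outside the rule. Members and lists were chosen with earlier results of these data known. Some marker genes are not reported here.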

Additional observations from a re-analysis of the deposited data

How the results depend on the processing

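Across 20 alternative settings, 24 of the 29 members higher in RPMI-8226-R than in its parent and 2 of the 5 lower (NFE2L1 and SEM1) kept direction and call in every one. The members lower were 3 with library totals alone and 2 on either TPM scale (pseudocount 1 or 0.1), and all genes lower were 4584 and 4649 on the TPM scales. Leaving out 1 library at a time, with the lone library of that line assumed to vary like the others, gave 25 to 35 members higher (25 without RPMI-8226-R library 1, 35 without RPMI-8226-R library 2) and 4 to 5 lower, with 5012 to 5697 of all tested genes higher and 6588 to 7504 lower. In RPMI-8226 against the libraries labelled NCI-BL2171, members higher were 2 with library totals and on both TPM scales and 3 with the length offset, and 4 to 6 higher and 32 to 34 lower on leaving out 1 library (all genes 7778 to 8711 and 6529 to 7570). In RPMI-8226-R against the same libraries, 15 members were lower on both TPM scales, and 13 to 17 were higher and 20 to 22 lower on leaving out 1 library (all genes 7398 to 7914 and 7037 to 7769).

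Signs turned in few members. On the TPM scales with pseudocounts of 1 and 0.1, RPMI-8226-R against RPMI-8226 gave log2 differences of 0.13 and 0.13 for PSMG2, 0.068 and 0.069 for PSMG3, 0.35 and 0.35 for PSMB2 and 0.33 and 0.34 for NGLY1, and RPMI-8226 against NCI-BL2171 gave -0.041 and -0.042 for PSMG3. PSMB2 was 0.022 with DESeq2's size factors and its Wald test, 0.021 with the length offset, 0.19 with library totals and 0.057 in the 2 lines alone. NGLY1 was 0.032 with the size factors and the Wald test, 0.20 with totals, 0.014 with the offset and 0.067 in the 2 lines alone. PSMA2 and PSMA6 were -0.033 and -0.025 with upper-quartile factors. On leaving out 1 library, PSMA2 ranged over -0.068 to 0.15, PSMA6 over -0.14 to 0.22, POMP over -0.042 to 0.22, PSMB2 over -0.10 to 0.067 and NGLY1 over -0.070 to 0.043. DDI2 was -0.12 in RPMI-8226-R against NCI-BL2171 with the length offset. The cause was not tested.

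The numbers in the titles did not pair the libraries: deviations of same-numbered libraries correlated at 0.0129, -0.0035 and 0.0327 over genes. With the replicate block 30 members were higher and 5 lower in RPMI-8226-R than in its parent, 5 and 34 in RPMI-8226 against NCI-BL2171, and 17 and 23 in RPMI-8226-R against NCI-BL2171. Beyond this, 2 libraries a line and a strand setting that is not given limit what the changes under 1.5-fold can show, and reads of PSMC1 and PSMA6 cannot be separated from their copies.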
